A study of Mus musculus with 21 samples.

Results

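Expression of 10 genes of the liver X receptor (LXR) and sterol regulatory element-binding protein 1c (SREBP1c) pathway was examined in left ventricular tissue of 21 male mice by RNA sequencing. The 10 were taken by symbol from a table of 55450 genes, and 17309 genes, all 10 members included, passed the filter on low counts. They were chosen by measured values: Srebf1, the gene of SREBP1, had been higher with empagliflozin (EMPA) in both genotypes, so differences between diets in these genes are given as descriptions with no test. Differences between genotypes played no part in the choice and were tested.

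The mice, of strain 129S6/SvEv, carried the myosin heavy chain mutation R403Q on 1 allele (labelled Myh6+/R404Q), a model of hypertrophic cardiomyopathy, or were wild-type (WT) littermates. They ate a control diet (CD) or the same diet with EMPA, an inhibitor of the kidney's sodium-glucose cotransporter 2, at 0.15 mg per g. The groups were WT-CD (n = 5), R403Q-CD (n = 7), WT-EMPA (n = 5) and R403Q-EMPA (n = 4). Hearts were taken at 12 weeks of age; the labels give 16 weeks of treatment, which is longer than these mice had lived, and the methods give 2 weeks for the mice sequenced. All mice of 1 cage ate the same diet (4 CD cages, 3 EMPA cages), so that cage and diet cannot be told apart, while 6 cages held both genotypes. The mutation is present from birth in every cell, and the tissue is whole ventricle, in which fewer cells of a type and less RNA per cell cannot be told apart.

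LXRα and LXRβ are nuclear receptors that sense oxysterols, oxidised forms of cholesterol. Bound to DNA with a retinoid X receptor, they raise genes that export cholesterol and lower its uptake. They also raise Srebf1, whose SREBP1c form is a main transcriptional driver of fatty acid synthesis in liver. SREBP1c then acts on genes such as Fasn, Acaca and Scd1. The heart makes little fatty acid itself and burns fatty acid taken up from blood.

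Each library held 23491535 to 43539684 counts. The summed level of 8 cardiomyocyte genes was 59729 to 105130 CPM (counts scaled to each library's effective total). R403Q-CD mouse 2 stood apart, with the lowest of these sums; the next lowest R403Q-CD mouse had 78604 CPM. Genotype results that could rest on it are given with and without it; leaving it out of the gene lists was chosen after seeing the data.

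Promoter sequences of the members were searched for the element that LXR is known to bind. RefSeq promoters (build GRCm38.p6, 250 bases before a start and 50 after) were at hand for 7 members in 10 entries. The search covered both strands and an LXR element made of the half-sites GGGTTA and CGGTCA with 4 free bases between them, and up to 2 mismatches in all; its letters were chosen from elements known in these genes. Of 32851 promoters of this length, 0.995% held a match, and among the members Srebf1, Abca1 and Fasn did, whereas Nr1h2, Nr1h3, Mylip and Acaca did not. The bases before the starts of those with a match are shown, with each match in capitals, as it reads on the gene's strand (the reverse complement of the form above).
Srebf1, chr11:60210472-60210721, minus strand: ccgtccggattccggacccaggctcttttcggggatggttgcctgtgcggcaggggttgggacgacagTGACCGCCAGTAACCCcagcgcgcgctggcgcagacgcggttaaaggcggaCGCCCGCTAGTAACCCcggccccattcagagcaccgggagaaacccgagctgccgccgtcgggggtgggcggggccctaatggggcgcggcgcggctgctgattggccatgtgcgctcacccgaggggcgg
Abca1, chr4:53159896-53160145, minus strand: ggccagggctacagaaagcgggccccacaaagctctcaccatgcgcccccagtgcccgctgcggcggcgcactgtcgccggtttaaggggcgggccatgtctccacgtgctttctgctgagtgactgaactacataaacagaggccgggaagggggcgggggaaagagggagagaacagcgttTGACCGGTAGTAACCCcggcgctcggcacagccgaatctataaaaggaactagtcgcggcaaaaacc
Fasn, chr11:120824548-120824797, minus strand: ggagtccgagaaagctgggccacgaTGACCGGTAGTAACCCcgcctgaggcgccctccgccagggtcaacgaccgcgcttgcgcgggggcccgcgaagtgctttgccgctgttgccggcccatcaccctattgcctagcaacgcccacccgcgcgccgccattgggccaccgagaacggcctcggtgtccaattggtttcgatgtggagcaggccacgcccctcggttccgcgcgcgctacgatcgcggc

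Srebf1 held a pair of matches that begin at -182 and -131 from its start, the second with 2 mismatches. This was the entry furthest downstream of its 3 starts, the start known for the SREBP1c form, and the other entries held none. Abca1 had 1 match at -67 and Fasn 1 at -225, each with 0 mismatches, and the 16 bases were the same in both. A repeat of the classical half-site, AGGTCA at the same spacing with up to 2 mismatches, was found in 0 member promoters and in 3.02% of all. The sterol regulatory element (ATCACC followed directly by CCAC, up to 2 mismatches) was found in 22.9% of all promoters and in those of Nr1h3, Mylip and Fasn, and the E-box CACGTG in 7.15% of all and in that of Abca1. These matches are descriptions of the letters and not of binding.

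Positions are those of GENCODE on GRCm38. Srebf1 (ENSMUSG00000020538) spans 60199089 to 60222581 of chromosome 11, Nr1h2 (ENSMUSG00000060601), which encodes LXRβ, 44549616 to 44553951 of chromosome 7, and Nr1h3 (ENSMUSG00000002108), which encodes LXRα, 91184061 to 91202834 of chromosome 2. Abca1 (ENSMUSG00000015243, chromosome 4, 53030787 to 53159895) and Abcg1 (ENSMUSG00000024030, chromosome 17, 31057675 to 31117988) encode cholesterol exporters. Mylip (ENSMUSG00000038175, chromosome 13, 45389742 to 45412022) encodes the ubiquitin ligase IDOL, which marks the LDL receptor for breakdown. Scd1 (ENSMUSG00000037071, chromosome 19, 44394455 to 44407879) and Scd2 (ENSMUSG00000025203, chromosome 19, 44293674 to 44306864) encode stearoyl-CoA desaturases, which put the first double bond into saturated fatty acids. Fasn (ENSMUSG00000025153, chromosome 11, 120805846 to 120824547) encodes fatty acid synthase, and Acaca (ENSMUSG00000020532, chromosome 11, 84129672 to 84401651) encodes acetyl-CoA carboxylase 1, which makes its substrate malonyl-CoA.

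How surely reads belong to a member differed. Of the 100-base windows of the longest coding transcript, 42.8% of those of Acaca also occurred in Gm5182, and since only uniquely aligned pairs were counted, the Acaca counts are uncertain. The share was 2.66% for Scd1 (with Scd3) and 0.896% for Scd2 (with Scd1), and 0% for the other 7. Counts are per gene, so that SREBP1a and SREBP1c, the products of different starts of Srebf1, were not separated.

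Per kilobase of exon, Nr1h2 had the highest mean level in WT-CD hearts, at 16.1 ± 0.809 RPKM (CPM divided by the exon length in kilobases; SD, n = 5), and Acaca the lowest, at 0.483 ± 0.0603 RPKM. Between them stood Scd1 (16.0 ± 9.95 RPKM), Mylip (11.4 ± 0.58), Nr1h3 (6.52 ± 0.816), Abca1 (5.40 ± 0.266), Srebf1 (5.36 ± 0.326), Scd2 (5.05 ± 0.879), Fasn (4.17 ± 1.09) and Abcg1 (1.04 ± 0.157). The receptor gene for LXRβ was thus above that for LXRα in every WT-CD mouse, with lowest and highest levels of 15.4 and 17.3 RPKM against 5.85 and 7.90 RPKM. The ranges of neighbours in this order overlapped for Nr1h2 and Scd1, for Scd1 and Mylip, and from Abca1 through Srebf1 and Scd2 to Fasn; they did not overlap between Mylip and Nr1h3, Nr1h3 and Abca1, Fasn and Abcg1, or Abcg1 and Acaca.

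**Figure D1:**
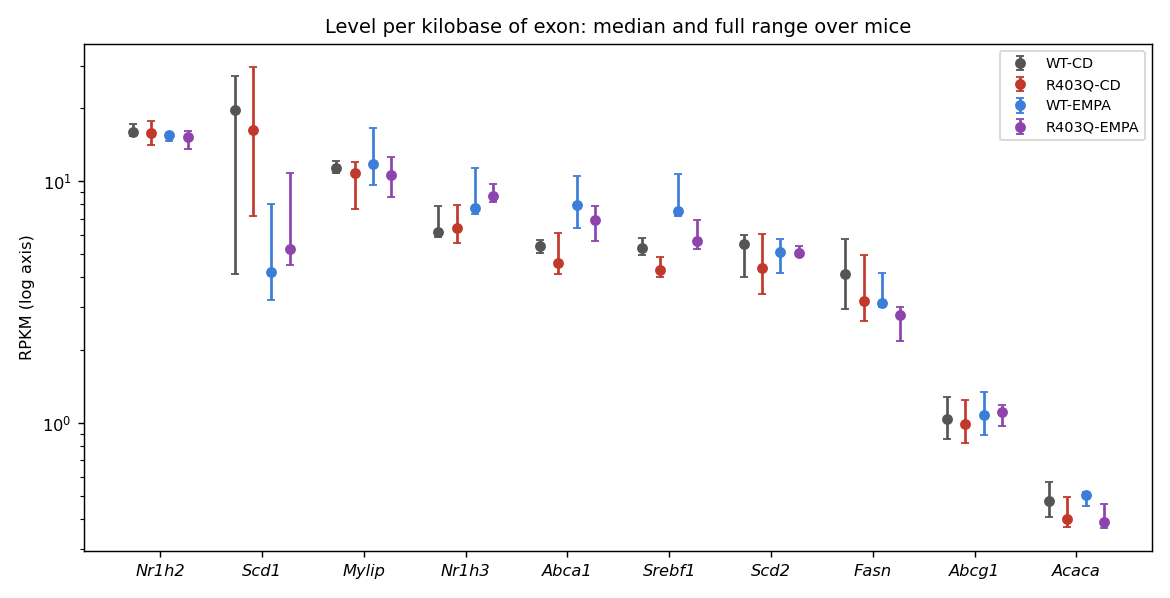
Level of each of the 10 genes in RPKM (log axis), ordered by the WT-CD mean; points are medians and bars the full range over the mice of a group. Nr1h2 stayed between 13.6 and 17.7 RPKM in all 4 groups, whereas Scd1 ran from 3.22 to 29.6 RPKM.

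With EMPA, Srebf1, Abca1 and Nr1h3 were higher in both genotypes, Scd1 was lower by far more, and Fasn was modestly lower. Nr1h2, Abcg1, Mylip, Scd2 and Acaca differed little between diets. These are the values behind the choice of the genes, so they carry no p-value here and support nothing. The diets were compared in separate mice in each genotype.

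**Figure D2:**
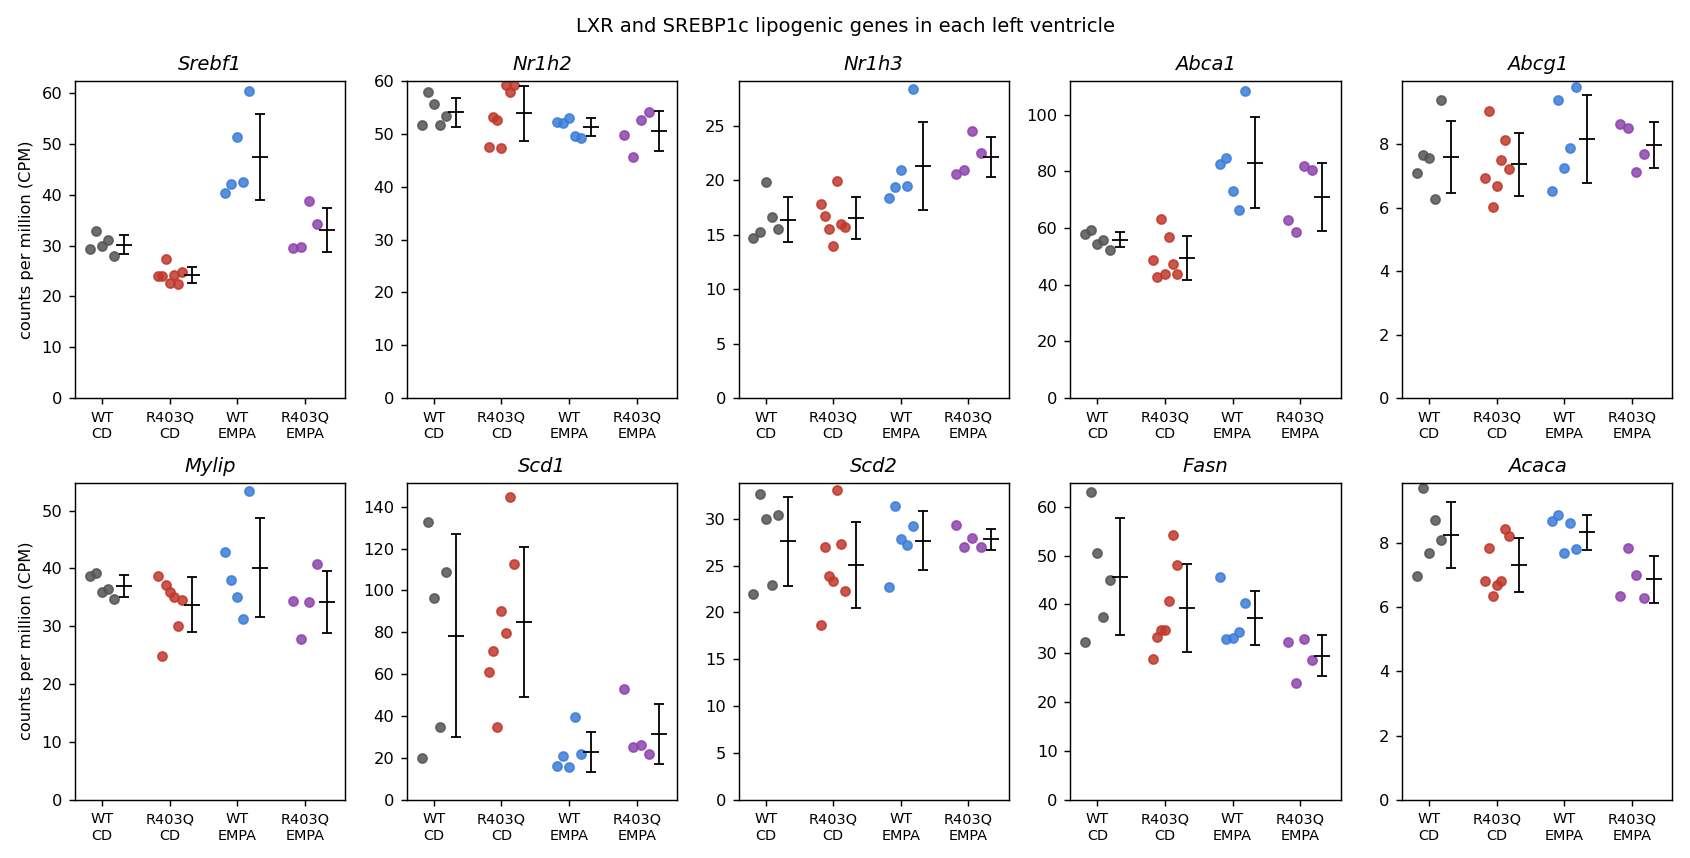
CPM of each gene in each of the 21 mice (points, coloured by group; vertical axes start at 0), with the group mean ± SD beside them in black. The WT-EMPA and WT-CD points of Srebf1 do not overlap, with a lowest WT-EMPA value of 40.4 CPM and a highest WT-CD value of 32.8 CPM, and Scd1 of the CD mice spreads from 20.1 to 144.9 CPM.

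Srebf1 was at 29.4, 32.8, 29.8, 31.1 and 27.9 CPM in the 5 WT-CD mice and at 40.4, 42.1, 51.3, 42.5 and 60.5 CPM in the 5 WT-EMPA mice. In R403Q-CD mice the lowest, median and highest values were 22.5, 24.0 and 27.3 CPM, and the 4 R403Q-EMPA mice had 29.5, 29.7, 38.8 and 34.2 CPM. Every EMPA mouse thus exceeded every CD mouse of its genotype, and the R403Q-EMPA mice overlapped the WT-CD mice. The log2 fold change of EMPA against CD was 0.65 ± 0.0982 (SE) in WT, a fold of 1.57, and 0.45 ± 0.0967 in R403Q, a fold of 1.37. WT-EMPA mouse 5 was the highest, and without it the WT value was 0.55; without R403Q-EMPA mouse 3 the R403Q value was 0.36. The R403Q effect minus the WT effect was -0.20 ± 0.139, which was -0.096 without WT-EMPA mouse 5 and -0.29 without R403Q-EMPA mouse 3.

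Among LXR targets that move cholesterol, Abca1 shared this pattern. It was at 57.7, 59.3, 54.2, 55.9 and 52.4 CPM in WT-CD and at 82.4, 84.8, 73.0, 66.3 and 108.5 CPM in WT-EMPA, with no overlap. In R403Q-CD it had 42.7, 47.3 and 63.1 CPM as lowest, median and highest, against 62.9, 58.7, 81.9 and 80.5 CPM in R403Q-EMPA, where the groups overlapped through 1 R403Q-CD mouse. The log2 fold change was 0.57 ± 0.126 in WT and 0.52 ± 0.123 in R403Q. The other exporter, Abcg1, differed by 0.10 ± 0.127 and 0.11 ± 0.126, and its groups ranged from 6.02 to 9.80 CPM. Mylip differed by 0.12 ± 0.128 in WT and 0.022 ± 0.128 in R403Q, and the WT value was -0.0093 without WT-EMPA mouse 5.

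Of the receptors, Nr1h3 differed between diets and Nr1h2 hardly did. Nr1h3 was at 14.7 to 19.9 CPM (median 15.5) in WT-CD and 18.4 to 28.4 CPM (median 19.5) in WT-EMPA, and at 14.0 to 19.9 CPM (median 16.0) in R403Q-CD and 20.6 to 24.5 CPM (median 21.7) in R403Q-EMPA. The groups overlapped in WT and did not in R403Q. Its log2 fold changes were 0.38 ± 0.113 and 0.42 ± 0.111, and the former was 0.26 without WT-EMPA mouse 5. Nr1h2 differed by -0.077 ± 0.068 in WT and -0.092 ± 0.0677 in R403Q, with all mice between 45.5 and 59.3 CPM.

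The lipogenic members Scd1, Fasn, Scd2 and Acaca did not follow Srebf1. Scd1 was at 20.1, 132.5, 96.3, 34.7 and 108.7 CPM in WT-CD and at 16.1, 20.7, 15.8, 39.5 and 22.0 CPM in WT-EMPA. In R403Q-CD it had 34.9, 79.7 and 144.9 CPM as lowest, median and highest, against 52.7, 25.1, 26.1 and 21.9 CPM in R403Q-EMPA. The log2 fold change was -1.78 ± 0.433 in WT and -1.43 ± 0.442 in R403Q, the largest of the 10 genes in size, with overlapping groups in both genotypes, as 2 of the WT-CD mice and 1 of the R403Q-CD mice were low. Within groups its log2 CPM had an SD of 0.778, against a median of 0.203 over all genes tested, which put it at percentile 97.0.

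Fasn was lower with EMPA by 0.29 ± 0.171 on the log2 scale in WT (its estimate was -0.29) and by 0.41 ± 0.173 in R403Q (-0.41). The WT estimate was -0.15 without WT-CD mouse 2 and -0.40 without WT-CD mouse 1. Over single mice left out, the R403Q estimate ran from -0.48 to -0.32. Its group means were 45.7 ± 11.9 CPM (SD, n = 5) in WT-CD, 37.3 ± 5.55 (n = 5) in WT-EMPA, 39.3 ± 8.99 (n = 7) in R403Q-CD and 29.5 ± 4.15 (n = 4) in R403Q-EMPA, and its diet groups overlapped in both genotypes. Scd2, the desaturase gene more active in brain, differed by 0.0040 ± 0.128 in WT and 0.15 ± 0.127 in R403Q. Acaca differed by 0.016 ± 0.101 and -0.089 ± 0.102.

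Counted over the 10 genes, groups that did not overlap were seen for 2 in WT (Srebf1 and Abca1; 3.45% of all genes) and for 2 in R403Q (Srebf1 and Nr1h3; 1.62% of all genes), as the choice of the genes had used these differences. The median log2 fold change of the 10 was 0.060 in WT and 0.068 in R403Q, against -0.0036 over all genes in each, since higher and lower members offset each other. The interaction of genotype and diet passed the threshold (adjusted p under 0.05) in 0% of all genes in edgeR, which had 567 genes, 3.28%, at an unadjusted p under 0.05, and DESeq2 called 0.

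**Figure D3:**
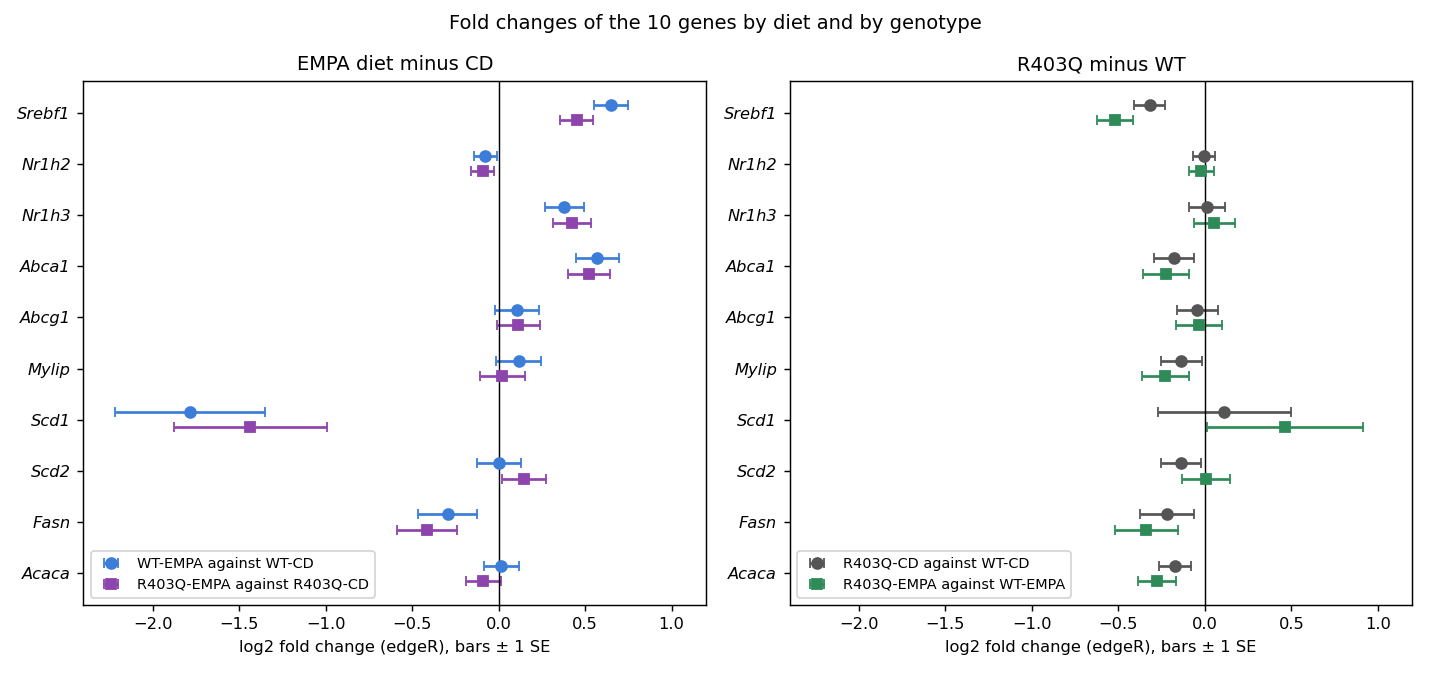
Log2 fold change (edgeR) of each gene, bars ± 1 SE, for EMPA against CD in each genotype (left) and R403Q against WT in each diet (right). On the left Srebf1, Nr1h3 and Abca1 lie to the right of 0 and Scd1 at -1.78 and -1.43, and on the right Srebf1 lies at -0.32 and -0.52.

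Genes that respond to fasting had higher estimates with EMPA in the same mice, none past the threshold in edgeR, and Scd1 varied with their sum among mice. The fasting list (Pdk4, Angptl4, Ucp3, Cpt1a, Acot1, Acot2, Plin2 and Plin5), genes of fatty acid use that rise when food is withdrawn, was summed in each mouse. Pdk4, which encodes a kinase that holds back glucose oxidation, made up 64.1% to 88.1% of the sum (median 81.5%), so that the sum is mostly its level. The sum ran from 1316 to 3656 CPM in WT-CD and 2820 to 7024 CPM in WT-EMPA, and from 1003 to 3687 CPM in R403Q-CD and 3440 to 5648 CPM in R403Q-EMPA. All 8 genes had higher estimates with EMPA in WT (median log2 fold change 0.85) and all 8 in R403Q (median 0.85). None passed the threshold in edgeR, which 0.0289% of all genes passed in WT and 0.0116% in R403Q. At an unadjusted p under 0.05 there were 8 and 6 (against 11% and 13.4% of all genes), while DESeq2 called 4 and 2 of them higher (against 0.52% and 0.849% of all genes called).

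After each group's mean was taken out, log2 CPM of Scd1 and the log2 fasting sum had a Pearson r of -0.85 and a Spearman rho of -0.85 over the 21 mice, with r = -0.82 when the mice farthest from the median sum were left out (R403Q-CD mouse 6 and WT-CD mouse 1). The value was -0.86 in the 12 CD mice alone and -0.79 in the 9 EMPA mice alone. It was -0.85 with Pdk4 alone and -0.71 with the sum of the other 7 genes (-0.75 in CD mice and -0.53 in EMPA mice), a split chosen after seeing the data. WT-CD mouse 1, with 20.1 CPM of Scd1, had a fasting sum of 3656 CPM, close to WT-EMPA mouse 2 with 20.7 and 3710.4 CPM. At like sums, R403Q-CD mouse 1 had 61.2 CPM of Scd1 (sum 3680), R403Q-CD mouse 3 had 34.9 (3687) and R403Q-EMPA mouse 1 had 52.7 (3440). R403Q-CD mouse 6, with the highest Scd1 of all at 144.9 CPM, had the lowest sum, 1003 CPM. The points share libraries, diets and cages, and the part of feeding in the difference between diets was not tested.

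The other genes had their own relation to the sum. Scd2 had r = -0.69, Abcg1 -0.62, Acaca -0.59 and Fasn -0.52, and Mylip had 0.56, Abca1 0.45 and Srebf1 0.30 (all n = 21). Without the 2 farthest mice these were -0.66, -0.62, -0.43, -0.30, 0.56, 0.50 and 0.30. The sign depended on the diet for Fasn (-0.81 in CD mice, 0.51 in EMPA mice), Nr1h2 (-0.64, 0.35) and Nr1h3 (-0.029, 0.31), and not for the other 7 members; with the sum of the 7 genes other than Pdk4, Nr1h2 had -0.57 and -0.21. Srebf1 varied with this sum less than Scd1 did, and in the opposite direction.

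**Figure D4:**
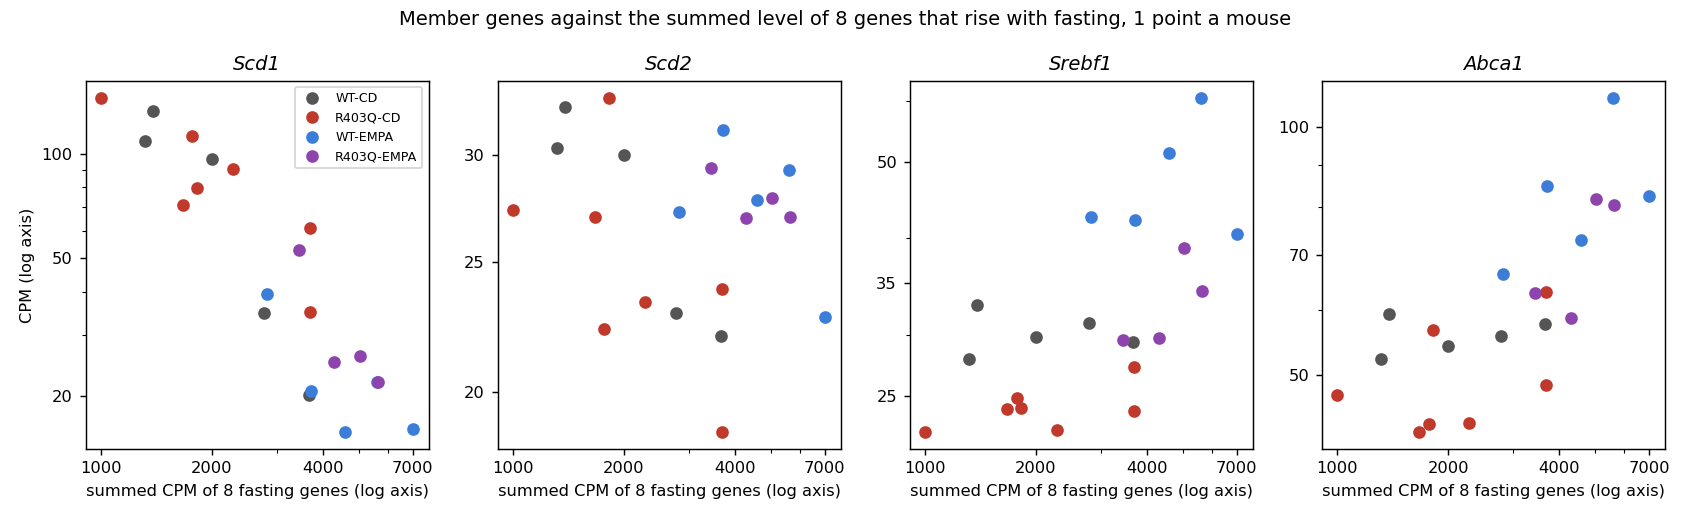
CPM of Scd1, Scd2, Srebf1 and Abca1 in each mouse against the summed CPM of the 8 fasting genes (both axes log, points coloured by group). Scd1 is lower at higher sums (r = -0.85 after group means are taken out), and Srebf1 shows a wide scatter (r = 0.30). Among EMPA mice the highest Scd1 values, 39.5 and 52.7 CPM, belong to the lowest sums, 2820 and 3440 CPM. EMPA mice with sums of 3710 CPM or more have 15.8 to 26.1 CPM of Scd1, with no clear fall.

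Estimates of clock genes and red blood cell genes also differed between diets, none past the threshold in edgeR. Of the 17 clock genes, 13 had lower estimates with EMPA in WT (median log2 fold change -0.28) and 11 in R403Q (-0.32). At an unadjusted p under 0.05, 3 were higher and 8 lower in WT, and 3 higher and 9 lower in R403Q, where 11% and 13.4% of all genes had such a p, while DESeq2 called 0 and 2 (0.52% and 0.849% of all genes). Their summed level ran from 780 to 1200 CPM in WT-EMPA and 785 to 988 CPM in R403Q-EMPA, against 1014 to 1329 CPM over the CD mice. Srebf1 had r = -0.59 with that sum (n = 21, centred on groups, with -0.23 in CD mice and -0.73 in EMPA mice). Scd1 had 0.50 with it (0.70 in CD mice and 0.37 in EMPA mice) and Fasn 0.37 (0.79 and -0.10). The 5 red blood cell genes were higher in both genotypes by estimate (median 0.63 and 0.63); none passed in edgeR, with 4 and 5 at an unadjusted p under 0.05, against the same 11% and 13.4% of all genes, and DESeq2 called 1 and 2. Their sums ran from 706 to 1717 CPM in CD mice and 1214 to 2660 CPM in EMPA mice. Of 12 macrophage genes, 5 were higher by estimate with EMPA in WT (median -0.018) and 11 in R403Q (median 0.090); none passed in edgeR, with 0 and 1 at an unadjusted p under 0.05, which is no more than the share of all genes, and DESeq2 called 0. Without R403Q-CD mouse 2 the macrophage median in R403Q was 0.21, with 2 at an unadjusted p under 0.05.

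Markers of atrial and of smooth muscle tissue had lower estimates with EMPA. The 3 atrial genes tested (Sln, Myl7 and Myl4) were lower by estimate in both genotypes. Their median log2 fold change was -1.43 in WT, where 0 had an unadjusted p under 0.05 (11% of all genes). It was -3.40 in R403Q, where 3 had such a p (13.4% of all genes). Their sums with Bmp10 ran from 5.52 to 260 CPM in WT-CD and 2.12 to 78.1 CPM in WT-EMPA, and from 3.22 to 608 CPM in R403Q-CD and 2.70 to 34.8 CPM in R403Q-EMPA. R403Q-CD mouse 2 held the highest sum; without it the highest R403Q-CD sum was 157 CPM, the median in R403Q was -2.07 and 0 had an unadjusted p under 0.05. The 3 smooth muscle genes (Myh11, Acta2 and Tagln) had a median of -0.38 in WT and -0.72 in R403Q. At an unadjusted p under 0.05 there were 0 and 2, against the same 11% and 13.4% of all genes. Their sums ran from 202 to 625 CPM in WT-CD, 227 to 382 CPM in WT-EMPA, 297 to 828 CPM in R403Q-CD and 188 to 417 CPM in R403Q-EMPA. None of these genes passed in edgeR or DESeq2. The part of the clock, red blood cell, macrophage, atrial and smooth muscle genes in the differences between diets was not tested.

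Between genotypes, Srebf1 was lower in R403Q than in WT hearts. In CD mice its highest R403Q value, 27.3 CPM, lay below the lowest WT value, 27.9 CPM, and in EMPA mice the highest R403Q value, 38.8 CPM, lay below the lowest WT value, 40.4 CPM. The log2 fold change was -0.32 ± 0.091 in CD mice (edgeR adjusted p = 0.0673) and -0.52 ± 0.105 in EMPA mice (edgeR adjusted p = 0.0689), so that neither passed on its own. Averaged over the diets it was -0.42 ± 0.0693, 1.34-fold lower, with an edgeR adjusted p of 0.00182. Without R403Q-CD mouse 2 the averaged value was -0.43 (edgeR adjusted p = 0.00116) and the CD value -0.32 (0.0889).

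Mice that shared a cage gave the same direction. In the 6 cages that held both genotypes, mean log2 CPM of Srebf1 was lower in R403Q in 6 of 6, by -0.73 to -0.23 (median -0.35). Abca1 and Acaca were also lower in 6 of 6, by -0.42 to -0.088 and -0.41 to -0.037. Scd1 was higher in 4 and lower in 2 of 6, and Nr1h3 was higher in 3 and lower in 3. With cage as a term, the fit held 1 common genotype difference within cages in place of the average over diets. For Srebf1 it was -0.42 (edgeR adjusted p = 0.00336).

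**Figure D5:**
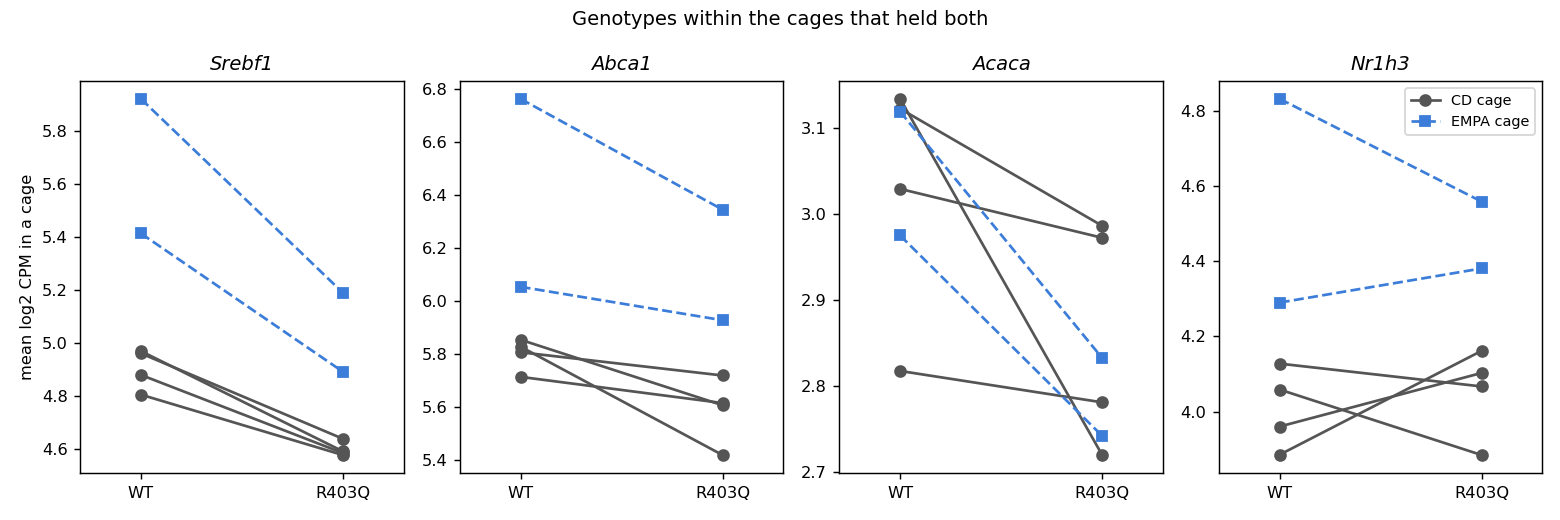
Mean log2 CPM of WT and R403Q mice within each of the 6 cages that held both (lines join a cage; circles CD, squares EMPA; each axis covers the range of its gene and does not start at 0). All 6 lines fall for Srebf1, Abca1 and Acaca, and 3 of 6 fall for Nr1h3.

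Of the other members, Acaca was 0.22 ± 0.0716 lower in R403Q on the log2 scale (estimate -0.22, averaged over diets, edgeR adjusted p = 0.0472). This call was lost in 4 of the 7 alternative analyses and in 14 of the 21 that left out a mouse, and 42.8% of its sequence windows occur elsewhere. Abca1 (-0.20 ± 0.0884, edgeR adjusted p = 0.132), Fasn (-0.28 ± 0.121, 0.129) and Mylip (-0.18 ± 0.0907, 0.187) did not pass, and neither did Nr1h2 (-0.014 ± 0.0479), Nr1h3 (0.033 ± 0.0793), Abcg1 (-0.039 ± 0.0893), Scd2 (-0.066 ± 0.0903) and Scd1 (0.29 ± 0.297). The error of Scd1 leaves a difference between genotypes of the size seen in Srebf1 undetectable in these mice.

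In counts, 2 of 10 members passed in the average over diets, where 10.9% of all genes passed; 0 passed in CD mice, where 1.44% of genes did, and 0 in EMPA mice, where 0.0578% did. At an unadjusted p under 0.05 edgeR had 1 member in CD mice (Srebf1) and 2 in EMPA mice (Srebf1 and Acaca), where it had 20.9% and 14.7% of all genes, so that these counts do not stand above the background. DESeq2 called Srebf1 in both (adjusted p = 0.028 and 0.00199) and 5.73% and 1.79% of all genes. Groups did not overlap for 1 member in CD mice (2.12% of all genes) and 2 in EMPA mice (Srebf1 and Fasn; 6.77% of all genes). The comparisons with R403Q-CD and those between diets share mice.

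Macrophage genes were higher in R403Q hearts, where Srebf1 was lower. Their sum ran from 310 to 415 CPM in WT-CD and 405 to 616 CPM in R403Q-CD, and from 261 to 410 CPM in WT-EMPA and 445 to 587 CPM in R403Q-EMPA. Averaged over diets, where 10.9% of all genes passed, 8 of the 12 did, all higher, of which the receptor gene Csf1r (log2 fold change 0.47 ± 0.0747, edgeR adjusted p = 0.00145), the complement genes C1qa (0.63 ± 0.118, 0.00425), C1qc (0.61 ± 0.116, 0.00464) and C1qb (0.68 ± 0.131, 0.00493) and the surface marker Adgre1 (0.63 ± 0.118, 0.00441) had the smallest p. Of 6 fibroblast genes, 6 were higher by estimate (median 0.61) and 2 passed, against the same 10.9% of all genes, with sums of 1013 to 1688 CPM in WT-CD and 1386 to 3635 CPM in R403Q-CD. In CD mice alone Csf1r (0.45 ± 0.0990, edgeR adjusted p = 0.0254) and Adgre1 (0.67 ± 0.158, 0.0351) passed (1.44% of all genes did), and DESeq2 called 7 of the 12 (5.73% of all genes). In EMPA mice 12 were higher by estimate (median 0.63) and 0 passed in edgeR, with 8 at an unadjusted p under 0.05 (14.7% of all genes), while DESeq2 called 4 (1.79% of all genes). R403Q-CD mouse 2 held the highest macrophage and fibroblast sums, and without it the R403Q-CD sums ended at 532 and 2389 CPM. In the fit without it, 8 macrophage and 3 fibroblast genes passed in the average. Csf1r and Adgre1 passed in CD mice (0.39 and 0.49), and 6 macrophage genes passed in EMPA mice. The share of all genes that passed in that fit is not given here, so these counts have no background beside them. Over mice, centred on groups, the macrophage sum had r = -0.075 with Srebf1 (-0.31 without the 2 mice farthest from the median sum, -0.31 in CD mice and 0.041 in EMPA mice) and 0.60 with Abcg1 (0.41 without those mice). Myh6, the gene that carries the mutation, was also lower (-0.39 ± 0.119, edgeR adjusted p = 0.0419; -0.34 and 0.00770 without R403Q-CD mouse 2; named after its value was seen).

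Estimates of fat cell and cardiomyocyte markers also differed between the genotypes, with 1 gene of each list past the threshold. Of the 9 fat cell genes tested, 9 were higher in R403Q by estimate in the average over diets (median log2 fold change 0.43), and 1 passed: Fabp4, a fatty acid carrier that endothelial cells of the heart also make (0.43 ± 0.0839, edgeR adjusted p = 0.00529; 0.41 and 0.00378 without R403Q-CD mouse 2). Their sums with Ucp1 ran from 668 to 845 CPM in WT-CD and 844 to 1292 CPM in R403Q-CD, and from 680 to 954 CPM in WT-EMPA and 911 to 1231 CPM in R403Q-EMPA. Fabp4 made up most of these, with means of 732 CPM in WT-CD and 963 CPM in R403Q-CD, while the fat cell hormone gene Adipoq did not exceed 5.54 CPM in any mouse. Between diets 7 of the 9 were lower by estimate with EMPA in WT (median -0.40) and 5 in R403Q (median -0.10), none past the threshold in edgeR or DESeq2. At an unadjusted p under 0.05 there were 1 and 0, against 11% and 13.4% of all genes. Without R403Q-CD mouse 2 the median in R403Q was 0.014, so that its direction turned. Of 8 cardiomyocyte genes, 6 were lower in R403Q by estimate (median -0.10) and 1, Myh6, passed.

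The remaining lists held few genes past the threshold between genotypes in that average, where 10.9% of all genes passed. Of the 17 clock genes, 15 were lower in R403Q by estimate (median -0.12) and 1 passed, the transcription factor gene Hlf (-0.41 ± 0.119, edgeR adjusted p = 0.0327). Their sum ran from 1096 to 1329 CPM in WT-CD and 1014 to 1267 CPM in R403Q-CD. Of 5 endothelial genes, 5 were higher by estimate (median 0.13) and 1 passed, Emcn, a surface protein of capillaries and veins (0.38 ± 0.105, edgeR adjusted p = 0.0269), with sums of 576 to 695 CPM in WT-CD and 669 to 742 CPM in R403Q-CD. Of 6 genes that glucocorticoids raise, Tsc22d3 was higher (0.30 ± 0.0845, edgeR adjusted p = 0.0279) and Zbtb16 lower (-0.54 ± 0.130, 0.0147). None of the smooth muscle, red blood cell, Schwann cell, atrial and fasting genes passed in edgeR or DESeq2, and 0 had an unadjusted p under 0.05 in edgeR. Without R403Q-CD mouse 2, Hlf, Emcn, Tsc22d3 and Zbtb16 kept their calls.

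These sums varied with some members among mice, centred on groups. The fat cell sum had r = -0.65 with Abca1 (-0.65 without the 2 mice farthest from the median sum), -0.56 with Nr1h2 (-0.55) and -0.16 with Srebf1 (-0.22). The cardiomyocyte sum had r = -0.23 with Srebf1 (-0.45 without the 2 farthest mice), which was 0.028 in CD mice and -0.83 in EMPA mice, and -0.50 with Abcg1 (-0.37) and -0.49 with Scd2 (-0.56). Between diets none of the 6 glucocorticoid genes passed in edgeR. At an unadjusted p under 0.05, 1 was higher and 2 lower with EMPA in WT, and 0 higher and 2 lower in R403Q (11% and 13.4% of all genes). DESeq2 called Tsc22d3 lower in WT and 0 in R403Q (0.52% and 0.849% of all genes). The part of cell makeup, of the clock and of glucocorticoids in the genotype and diet differences was not tested.

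Genes around the pathway were read from 5 lists. Averaged over diets, where 10.9% of all genes passed, 3 of 7 other LXR targets passed between genotypes: Apoe, the lipoprotein that carries exported cholesterol, was higher in R403Q (0.48 ± 0.0973, edgeR adjusted p = 0.00604), as was Pltp, the phospholipid transfer protein (0.24 ± 0.0715, 0.0345), and Lpcat3, which puts polyunsaturated chains into phospholipids, was lower (-0.23 ± 0.0664, 0.0291). Apoe, which macrophages also make, led the higher genes in CD mice (0.45 ± 0.129, edgeR adjusted p = 0.0702) and in EMPA mice (0.52 ± 0.146, 0.133) without passing in edgeR, while DESeq2 called it in both. Of the 10 tested LXR partners and oxysterol enzymes, the coactivator Ncoa1 (-0.18 ± 0.0556, edgeR adjusted p = 0.0384) and the corepressor Ncor1 (-0.20 ± 0.0614, 0.0391) were lower and 0 higher; DESeq2 also called Rxra lower. Rxra, which encodes a partner receptor, had the smallest p of the lower genes in CD mice (-0.33 ± 0.101, edgeR adjusted p = 0.0831), where DESeq2 called it, and Lpcat3 in EMPA mice (-0.29 ± 0.100, 0.199).

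None of the 7 genes that process SREBP and none of the 18 other lipogenic genes passed in that average, with 0 and 4 at an unadjusted p under 0.05 in edgeR (29% of all genes), while DESeq2, which called 15.4% of all genes, called 0 and 2 (Fads1 higher and Dgat2 lower, named after their values were seen). Of 19 genes of cholesterol synthesis and its SREBP2 control, 1 passed: Stard4, which carries cholesterol between membranes, was higher (0.23 ± 0.0675, edgeR adjusted p = 0.0320). The median over that list was -0.027, against 0.012 over all genes. Without R403Q-CD mouse 2, Apoe, Pltp, Lpcat3, Ncoa1, Ncor1 and Stard4 kept their calls (edgeR adjusted p from 0.00459 to 0.0404), and Rxra, Rxrg and Dgat2 passed as lower.

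Between diets none of the genes of these 5 lists passed in edgeR in either genotype. In WT the smallest p of the higher genes was that of Lpcat3 (0.42 ± 0.0941, edgeR adjusted p = 0.126), which DESeq2 called, and of the lower genes that of Thrsp, a regulator of lipogenesis (-0.44 ± 0.128, edgeR adjusted p = 0.240). In R403Q they were Rxra (0.37 ± 0.108, edgeR adjusted p = 0.174) and Sqle, an enzyme of cholesterol synthesis (-1.04 ± 0.322, 0.191), and DESeq2 called 0. Lpcat3 had 0.31 ± 0.0928 in R403Q (edgeR adjusted p = 0.181). At an unadjusted p under 0.05, where 11% of all genes stood in WT and 13.4% in R403Q, the other LXR targets numbered 3 higher of 7 in WT and 3 in R403Q. The other lipogenic genes had 4 higher and 1 lower of 18 in WT (median -0.016) and 3 higher and 1 lower in R403Q (median 0.0030). The LXR partners and oxysterol enzymes had 3 higher and 1 lower of 10 in each genotype. Without R403Q-CD mouse 2 these were 1 higher and 1 lower in R403Q. The SREBP processing genes had 1 higher of 7 in each genotype. The cholesterol synthesis list had 1 lower of 19 in WT and 2 in R403Q, no more than the share of all genes; 18 of these 19 were lower by estimate in WT (median -0.11) and 13 in R403Q (median -0.039). In the interaction the smallest p of the higher genes was that of Mvd (0.54 ± 0.225) and of the lower genes that of Mbtps2 (-0.22 ± 0.0863), each with an edgeR adjusted p of 0.999.

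Among mice of a group, Srebf1 varied most like genes outside the pathway. Of 14101 named genes with a mean of at least 1 CPM, those with the highest correlation after group means were taken out were Plagl1 (r = 0.83), Cdkn1a (0.77), Tbc1d32 (0.76), Exosc5 (0.75), Hs1bp3 (0.74), Cyp1b1 (0.73), Smarcal1 (0.73), Ptpn14 (0.72), Zfp444 (0.72) and Icam1 (0.72), over 21 mice. The lowest were Nrep (-0.77), Gm1976 (-0.78) and Gdf11 (-0.80). Without the 2 mice farthest from the median (WT-EMPA mouse 5 and R403Q-EMPA mouse 3) the values of these 13 lay between 0.56 and 0.74 in size. Among the members, Abca1 ranked 18 (r = 0.67; 0.48 without those mice), Nr1h3 44 (0.61; 0.33) and Mylip 278 (0.47; 0.27), while Scd1 (-0.22), Fasn (0.097) and Acaca (-0.21) varied little with it.

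Some pairs of members also varied together. The desaturase and synthesis genes had r = 0.67 for Scd1 and Fasn, 0.56 for Scd1 and Scd2 and 0.48 for Scd1 and Acaca (0.51, 0.41 and 0.24 without the 2 mice farthest from the median of Scd1), and Nr1h2 varied with Fasn (0.69). Abca1 and Mylip had r = 0.74 (0.66 without the 2 mice farthest from the median of Abca1). Abca1 and Scd1 had r = -0.36. These are descriptions over 21 libraries that share depth, diet and cage.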

How the data were processed

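The authors extracted RNA from frozen left ventricle, selected polyadenylated RNA, sequenced read pairs, aligned them to mm10 with STAR 2.6.0c and checked them with FastQC 0.11.7. The deposited counts, made by the authors with featureCounts of Subread 1.6.2, are uniquely aligned pairs per Ensembl gene on the gene's strand, mitochondrial genes left out. The deposited log2 values are the authors' DESeq2 1.32.0 variance-stabilizing transformation of them.

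The tests used edgeR 4.0.16 under R 4.3.3: filterByExpr (minimum count 10), TMM factors, 1 model over the 4 groups and the quasi-likelihood test, with Benjamini-Hochberg adjustment over all 17309 genes and a threshold of 0.05. An SE is the log2 fold change divided by the root of F. CPM are scaled by TMM, log2 CPM has a prior count of 2, and RPKM divides CPM by the union of GENCODE exons. P-values measure the spread between mice, 1 library each.

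The members, gene lists, rules and alternatives were chosen with earlier results of these data known. Named genes were the members; in each contrast up to 5 listed pathway genes per direction past the threshold, or the 1 with the smallest p; up to 5 marker genes; and the 10 most and 3 least correlated with Srebf1. 1 gene first placed in a marker list is not reported here and was left out of that list's sums and counts. The search letters of the promoters and the correlations with list sums were chosen after values were seen. The alternatives were DESeq2 1.42.0, other scaling, no filter, limma 3.58.1 on the deposited log2 values or with cage as a random effect, cage as a factor, fewer groups and leaving out each mouse. Over both diets, cage as a factor gave 1 common genotype difference within cages, which stands in for the average over diets. The edgeR fit was tested on simulated counts.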

Additional observations from a re-analysis of the deposited data

How the results depend on the processing

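Among 660 re-estimates of a member's genotype difference, 599 kept direction and side of the threshold. Between diets and in the interaction, where members carry no p-value here, 630 of 630 moved by less than the SD of mice within groups. That limit is so wide that leaving out 1 mouse could hardly exceed it, so the count shows little. Signs changed in 40, between diets those of Acaca, Mylip and Scd2 alone. The averaged genotype difference of Srebf1 passed in every one of its 7 alternatives and 21 analyses without a mouse (-0.47 to -0.36; adjusted p at most 0.00694). Within a diet, Srebf1 also passed with DESeq2 in CD (-0.32) and EMPA mice (-0.53), with cage as a random effect in EMPA mice (-0.53), and without R403Q-CD mouse 3 (-0.35) or WT-EMPA mouse 1 (-0.57). The averaged difference of Acaca did not pass with library size alone (-0.16), no filter (-0.23), cage as a random effect (-0.22) or cage as a factor (-0.20), or without 14 single mice (-0.26 to -0.19 over all 21).

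Members past the threshold numbered 1 with DESeq2 in both genotype comparisons, against 0 (all genes called: 992 in CD and 309 in EMPA mice). They numbered 1 with cage as a random effect in EMPA mice (all genes called: 11). Averaged over diets they numbered 1, against 2, with library size alone (all genes called: 2352), no filter (1300), and cage as a random effect (1981) or as a factor (2111). The main fit called 1883 of all genes there. Without single mice 1 to 2 members passed. Between diets the fits also covered the members, but their choice had used these differences, so that such calls support nothing. Members called numbered 3 with DESeq2 in each genotype (0.52% of all genes called in WT and 0.849% in R403Q). They numbered 0, against 1, in WT with library size alone or with the 2 groups compared. The call in WT was Srebf1, lost without WT-CD mouse 1, 3 or 5 or WT-EMPA mouse 3 or 5; nothing is read from these counts, since the choice of the genes used them. Without single mice they ran from 0 to 1 in R403Q-CD against WT-CD, in R403Q-EMPA against WT-EMPA and in WT-EMPA against WT-CD.

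All genes called in R403Q-CD against WT-CD numbered 992 with DESeq2, 475 with cage as a random effect, 98 without the WT-EMPA group, 28 with 2 groups and 19 with cage as a factor, against 250, and 31 (without WT-CD mouse 3) to 1045 (without R403Q-CD mouse 3). In R403Q-EMPA against WT-EMPA they numbered 309 with DESeq2, 123 with 2 groups and 6 with cage as a factor, against 10, and 1 to 64 without single mice. In WT-EMPA against WT-CD they numbered 90 with DESeq2, 0 with library size alone, and 1 with limma on log2 values or cage as a random effect, against 5, and 0 to 7 without single mice. In R403Q-EMPA against R403Q-CD they numbered 147 with DESeq2, 5 with library size alone, and 0 without the WT-EMPA group or with 2 groups, against 2, and 0 to 12. Averaged over diets they ran from 961 to 2764 without single mice, against 1883. The cause was not tested.

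Genotype estimates near 0 changed sign. With library size alone Nr1h2 was 0.062, 0.031 and 0.046 (CD, EMPA, average) and Abcg1 0.028, 0.015 and 0.021. Scd2 in EMPA mice was -0.0013 with DESeq2 or its size factors. With cage as a factor Nr1h2 (0.024), Nr1h3 (-0.098) and Scd2 (-0.026) changed in EMPA mice and Nr1h3 (-0.012) on average. Without single mice, ranges that crossed 0 in CD mice were -0.030 to 0.023 for Nr1h2, -0.037 to 0.090 for Nr1h3, -0.11 to 0.045 for Abcg1 and -0.13 to 0.39 for Scd1. In EMPA mice they were -0.056 to 0.026 for Nr1h2, -0.0082 to 0.18 for Nr1h3, -0.10 to 0.040 for Abcg1 and -0.057 to 0.055 for Scd2. On average they were -0.031 to 0.0073 for Nr1h2, -0.00054 to 0.096 for Nr1h3 and -0.075 to 0.0057 for Abcg1. Scaling by library size alone moved the median of all genes by at most 0.066 on the log2 scale.

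The choice of the genes on their diet difference, cages that hold 1 diet only, 4 to 7 mice a group and genes counted without isoforms limit these results. The labels give no replicate numbers, and the block used was the cage. Of 40 groups of members' values, 0 held an outlying mouse by Dixon's test.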
